A study of Mus musculus with 17 samples.

Results

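NF-kappaB is a family of transcription factors built from the Rel-homology subunits Rela, Relb, Rel, Nfkb1 and Nfkb2. In resting cells inhibitor proteins of the IkappaB family, such as the products of Nfkbia and Nfkbie, hold the dimers in the cytoplasm; when the inhibitors are degraded, the dimers enter the nucleus and raise the transcription of many genes, their own inhibitors included. That transcriptional feedback makes Nfkbia, Nfkbie, Tnfaip3 and Bcl3 textbook readouts of the pathway, and the target gene Icam1 is another. Fibroblasts respond to inflammatory cytokines through this pathway. The genes described here are these NF-kappaB subunits and feedback genes and the target Icam1, chosen by name. Every probe set was taken that the array annotation assigns to exactly 1 of 10 genes (Nfkb1, Nfkb2, Rel, Rela, Relb, Nfkbia, Nfkbie, Tnfaip3, Bcl3 and Icam1). This gave 9 genes of the 12637 named in the series, with 13 probe sets in one table and 12 in the other. Nfkb1 was not analysed here.

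RNA was measured on 17 arrays in 3 experiments, each condition of an experiment on 1 array. The cells were NIH 3T3, an embryonic fibroblast line of the mouse. Cells were labelled quiescent on all arrays but 5 of the MEK experiment, whose labels do not say, and all PDGF treatments used 25 ng/ml of this fibroblast mitogen. In the Src experiment (the 8-array table) cells received vehicle, SU6656 at 2 µM, UO126 at 10 µM or LY294002 at 7.5 µM, each without PDGF and with PDGF for 1 h. The MEK experiment had untreated cells, UO126 at 10 µM and PD98059 at 7.5 µM, each without and with PDGF, but the sources used here give no duration. A repeat of the Src experiment had vehicle, PDGF for 1 h, and PDGF for 1 h with SU6656 at 2 µM; it shares the 9-array table with the MEK experiment. SU6656 blocks kinases of the Src family and LY294002 blocks PI3K, while MEK, which activates ERK, is the target of both UO126 and PD98059. A condition therefore has no replicate within an experiment. Separate cultures are not mentioned in the labels, so p-values reflect only how far these arrays differ among themselves, which may be technical. NIH 3T3 is a single immortalised line, and each inhibitor was used at a single dose.

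Values are array signals scaled by the submitters to a common mean. Medians per array lay between 133.7 and 198.4 signal units. Each signal given below is the deposited one, while each log2 difference was taken after quantile normalisation and addition of a pseudocount, which makes the folds of dim probe sets too small. Fibroblast markers were present, with 12 of 13 above the filter on dim probe sets in each table, while 6 of 9 macrophage and leukocyte markers were above it in the 8-array table and 5 of 9 in the 9-array table, with Ptprc, Itgam and Cd3e below it in both. In the 8-array table the summed signal of these 9 markers was 1550.8 to 1657.5 without and 1340.2 to 1509.2 with PDGF, and that of 6 endothelial markers was 521.2 to 763.3 and 415.8 to 468.8. These groups did not overlap there, while in the 9-array table the ranges overlapped for both lists. How many of all probe sets were separated in this way was not counted. The summed signal of 5 epithelial markers in the 8-array table overlapped, at 415.9 to 776.2 without and 571.5 to 745.7 with PDGF. The part of these markers in the results below was not tested.

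The sequences around the transcription start sites show where the members carry the letters of an NF-kappaB site. RefSeq promoter windows (GRCm38.p6, 250 bases before to 50 after each start) were found for 8 of the members, 11 windows in all. They were searched on both strands for the kappaB consensus GGGRNNYYCC, where R is A or G, Y is C or T and N is any base. This consensus occurs in windows of 6 members (8 of the 11 windows), against 8.46% of all 32851 windows of that length. These genes are known as NF-kappaB targets and were chosen as such, so this count is a description. One stretch per matching gene is shown, written 5′ to 3′ on the gene's strand with the match in capitals, so that the only member called with PDGF, Bcl3, can be set beside those that were not.
Bcl3: cggcggcagGGGAAGTCCCgctgcccgg
Nfkbia: gactggcttGGAAATTCCCcgcgcctga
Nfkbie: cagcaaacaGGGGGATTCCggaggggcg
Rel: gtaagcagcGGGAAATCCCCccccctccc
Tnfaip3: atttccatcGGAAATCCCCctgttggca
Nfkb2: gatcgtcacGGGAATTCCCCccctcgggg
The Bcl3 stretch lies at chr7:19822735-19822762 on the minus strand, and its match covers bases 2 to 11 after the first transcribed base. The Nfkbia stretch, at chr12:55492658-55492685 on the minus strand, has its match 29 to 20 bases before the start. That of Nfkbie is at chr17:45555585-45555612 on the plus strand, that of Rel at chr11:23771042-23771070 on the minus strand, that of Tnfaip3 at chr10:19015404-19015431 on the minus strand and that of Nfkb2 at chr19:46304689-46304717 on the plus strand. The capitals of Rel and Nfkb2 join 2 overlapping matches. The windows of Icam1 and Rela hold no match to the full consensus. Letters that depart from it were not counted, such as TGGAAATTCC in the window of Icam1. The promoter of Icam1 holds TTCNNNGAA, as TTCCCGGAA, 42 to 34 bases before the start; those letters are in 8.3% of all windows and, among the members, also in a window of Nfkb2. The letters TGANTCA were found for Nfkb2, Nfkbie and Tnfaip3 (7.81% of all windows) and the CArG box for 0 members (1.63% of all windows). A match is a run of letters in a window, not a measured binding site.

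The stretch further upstream of Bcl3, 181 bases at chr7:19822825-19823005 on the minus strand, holds none of the 4 motifs and is shown because the results turn on this gene.
Bcl3: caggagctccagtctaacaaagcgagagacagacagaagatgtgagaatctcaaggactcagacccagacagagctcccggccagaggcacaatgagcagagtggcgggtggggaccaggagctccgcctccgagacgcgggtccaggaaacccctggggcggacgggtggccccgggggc

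Bcl3 was the only member that passed the test with PDGF. Its call in the 9-array table is the firmer one, since in the 8-array table its probe set passed the filter on dim values only through the arrays with PDGF. It encodes an atypical IkappaB protein that enters the nucleus and binds NF-kappaB dimers there. In the Src experiment its signal was 51.4 with vehicle and 416.6 with PDGF, an 8.11-fold ratio of the deposited signals. In the repeat it was 64.4 and 459.1, a 7.13-fold ratio. In the MEK experiment it was 475.9 untreated and 977.8 with PDGF, a 2.05-fold ratio. After normalisation and with the pseudocount, 2.2%, 3.98% and 3.83% of probe sets were at least 2-fold higher with PDGF, 1 array against 1. These shares are for the Src experiment, the repeat and the MEK experiment. For Bcl3 the response over basal on this log2 scale was 2.40, 2.48 and 1.00 in that order, or 1.96 ± 0.83 (SD, n = 3 experiments). Its value in the MEK experiment, 0.9955 before rounding, was just below the 2-fold limit, so Bcl3 is not among the 3.83%. The smaller ratio of the MEK experiment went with a higher basal signal rather than with a lower signal under PDGF.

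Fitted over 4 array pairs per table, each with and without PDGF, Bcl3 rose by 1.62 (log2, SE 0.36, limma adjusted p = 0.0442) in the 8-array table and by 1.68 (SE 0.218, limma adjusted p = 0.00194) in the 9-array table. It was higher with PDGF in all 8 pairs. In the 8-array table the mean normalised signal of Bcl3 was 53.8 without and 279 with PDGF, against a limit of 73.75 for the dim filter, so that its high group brought it into the test. In the 9-array table the means were 244 and 571, both above the limit of 44.73. The share of probe sets called was 3.31% (2.51% upward) of 15838 for the 8 arrays and 1.73% (1.46% upward) of 8695 for the 9. Among the members 1 of 8 tested was called in the former and 1 of 6 in the latter, with 0 down in either. The median change of the members tested was 0.31 and 0.17, against −0.03 over all probe sets in each table, which is a description only, since in the 8-array table Bcl3 and Nfkbie were above the limit only with PDGF and Tnfaip3 only without it. The call in the 8-array table was lost when either array of the vehicle, UO126 or LY294002 pair was left out (log2 1.30 to 1.71, lowest limma adjusted p = 0.11), without the filter on dim probe sets (limma adjusted p = 0.116), without a variance trend (limma adjusted p = 0.177) and without the pair block (limma adjusted p = 0.0722). The call in the 9-array table held without any 1 of its 8 arrays (limma adjusted p = 0.00153 to 0.0113), but was lost without the trend (limma adjusted p = 0.0575) and without the pair block (limma adjusted p = 0.291).

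**Figure D1:**
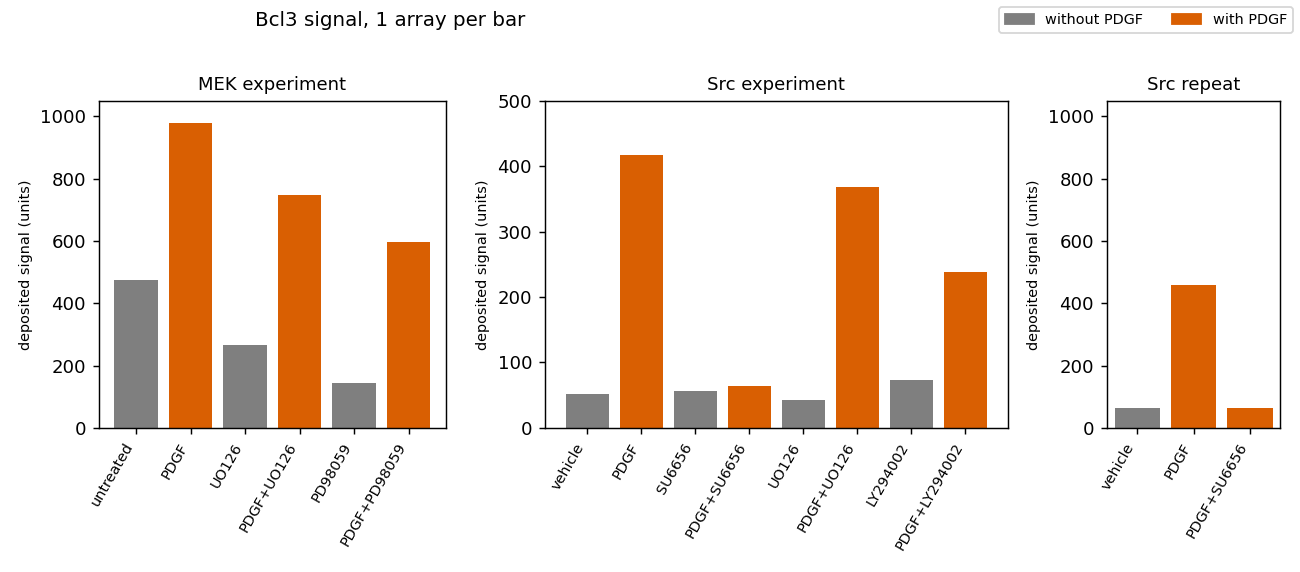
Deposited signal of Bcl3 on each array (y axis, signal units, 1 array per bar, no error bars) by treatment (x axis) in the MEK experiment, the Src experiment and its repeat; the y axis of the Src experiment, an array design of its own, runs to a lower value. With PDGF and SU6656 the bars are at 64.6 in both experiments that used it, beside 416.6 and 459.1 with PDGF alone.

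The inhibitor arrays differed most for SU6656. In the Src experiment the signal of Bcl3 was 56.3 with SU6656 alone and 64.6 with PDGF and SU6656, so that the pair with this inhibitor had a PDGF response of 0.21 (log2), against 2.40 with vehicle, 2.55 with UO126 and 1.32 with LY294002. The repeat, on another array design, gave 64.6 with PDGF and SU6656. Under PDGF the inhibitor change was −2.16 in the Src experiment and −2.51 in the repeat. In these comparisons of 1 array with 1 array, 1.51% and 3.4% of probe sets were at least 2-fold lower with SU6656. Since the PDGF array enters both the PDGF ratio and the inhibitor ratio, the direct comparison with basal is of use: PDGF with SU6656 over vehicle was 0.24 in the Src experiment and −0.04 in the repeat. Both arrays with PDGF and SU6656 therefore lay near the vehicle array of their experiment, on which the signal was low (51.4 and 64.4).

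These differences have no replicate within an experiment, and the tests that the 8-array table allows did not call them. A fit of the PDGF response with SU6656 against the mean of the other 3 backgrounds, chosen after the values of Bcl3 had been seen, gave −1.88 (log2, SE 0.596, unadjusted p = 0.0127, limma adjusted p = 0.813). In the same fit limma called 0% of all probe sets. The 1 of the 8 members with an unadjusted p under 0.05 was Bcl3, for which the fit was chosen. That count is therefore a description. The residual of that fit contains the spread between the other 3 backgrounds. The additive effect of SU6656 over both arrays of its pair was −1.06 (SE 0.509, limma adjusted p = 0.649), and it holds the array without PDGF, on which Bcl3 was near vehicle. That effect was −2.01 without the SU6656 array, −0.12 without the array of PDGF with SU6656, and −0.54 without the PDGF array. An alternative chosen after seeing the data left out the SU6656 pair, in which Bcl3 responded least. The PDGF change of Bcl3 in the 8-array table was then 2.09 (log2). That choice fixes the direction of the shift, so the value is a description.

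LY294002 and the MEK inhibitors gave smaller values. The signal of Bcl3 in the Src experiment was 73.4 with LY294002 and 238.4 with PDGF and LY294002, between the arrays with vehicle and PDGF. Its change under PDGF with LY294002 was −0.71 (log2). With UO126 the signals were 42.5 and 368.0, and the change under PDGF was −0.13. In the MEK experiment the signal was 266.9 with UO126, 143.4 with PD98059, 746.1 with UO126 and PDGF, and 595.5 when PD98059 was combined with PDGF. All 3 arrays with PDGF were above all 3 without it, though how many of all probe sets were separated in this way was not counted. The changes under PDGF were −0.41 with UO126 and −0.72 with PD98059, and those without PDGF −0.78 and −1.62.

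With both inhibitors pooled as MEK inhibition, Bcl3 had −0.93 (log2, SE 0.4) under PDGF and −0.83 (SE 0.4) without it. Neither passed (limma adjusted p = 0.666 and 0.724), and the PDGF by MEK inhibitor interaction was −0.11 (SE 0.506, limma adjusted p = 0.999). The difference of UO126 from PD98059 was 0.57 (SE 0.314, limma adjusted p = 0.955). Leaving out 1 array moved the value under PDGF to between −2.05 (without the PDGF array of the MEK experiment) and −0.56 (without the untreated array, or without an array of the PDGF pair of the repeat). The value without PDGF rests on the untreated array, without which it was 0.29. On the untreated array the 3′ Gapdh control had 1.13 times the signal of the 5′ one, where the other 16 arrays had 0.739 to 0.907 times, and its Bcl3 signal of 475.9 stands beside 64.4 on the vehicle array of the repeat; the part of RNA quality in this difference was not tested, and experiment and basal treatment cannot be told apart.

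**Figure D2:**
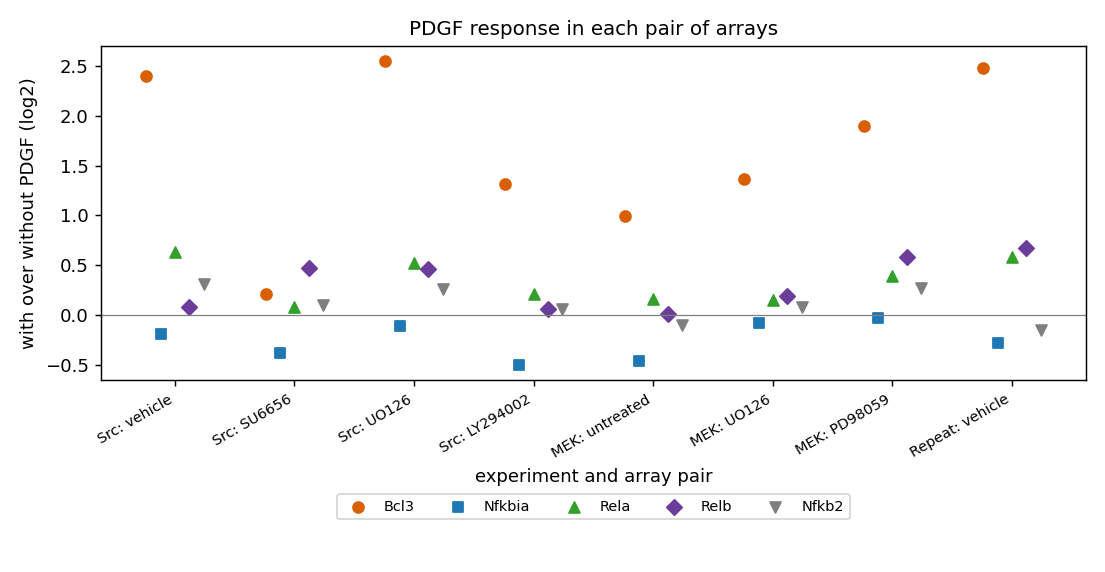
Log2 ratio of the array with PDGF over the array without PDGF (y axis) in each of the 8 pairs (x axis, experiment and background) for the 5 members named in the legend, 1 point per pair and gene. Bcl3 runs from 0.21 in the SU6656 pair to 2.55, Rela and Relb lie at or above 0 and Nfkbia below 0 in every pair.

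Among the subunits, Rela and Relb showed small positive PDGF values and did not pass the test. Rela encodes the activating subunit that carries much of NF-kappaB transcription in fibroblasts. In the Src experiment its signal was 1193.0 with vehicle, 1594.9 with SU6656, 1345.1 with UO126 and 1591.7 with LY294002. With PDGF added it was 1904.6, 1712.4, 1994.1 and 1844.3 in the same order. In the MEK experiment the signals ran from 2985.8 to 3092.6 without PDGF and from 3426.7 to 3979.0 with it. In the repeat they were 2178.1 with vehicle, 3282.4 with PDGF and 3276.0 with PDGF and SU6656. The fitted change was 0.36 (log2, SE 0.0993, limma adjusted p = 0.0985) in the 8-array table and 0.32 (SE 0.102, limma adjusted p = 0.208) in the 9-array table. With arrays scaled to a common median the former was 0.49 and passed (limma adjusted p = 0.0307). Over the 3 experiments the response over basal was 0.46 ± 0.26 (SD, n = 3).

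Relb encodes a subunit of the non-canonical pathway, which pairs with the product of Nfkb2. Its signal in the Src experiment was 210.7 with vehicle and 210.6 with PDGF. Over all treatments it was 198.4 to 313.8 without and 210.6 to 323.1 with PDGF, so the groups overlapped. The fitted change was 0.27 (SE 0.141, limma adjusted p = 0.389) and 0.36 (SE 0.149, limma adjusted p = 0.337) at its brightest probe sets. A second, dimmer probe set for Relb in the 9-array table had 1.28 (SE 0.436, limma adjusted p = 0.243), with pair values from 0.08 to 2.86, so the probe sets of this gene disagree in size. That probe set was above the dim filter only with PDGF, at a mean of 36.6 without and 136 with it. At the brightest probe set the change under PDGF was 0.50 with SU6656 in the Src experiment but −0.29 in the repeat, where the dimmer probe set had 1.97, of opposite sign.

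Nfkb2 encodes the precursor of a further subunit that also acts as an inhibitor. Its brightest probe sets had a PDGF change of 0.18 (SE 0.0934) in the 8-array table and 0.02 (SE 0.131) in the 9-array table (limma adjusted p = 0.38 and 0.964). Its signal was 539.1 to 719.6 without and 640.8 to 746.0 with PDGF in the former. A dimmer probe set there had −0.23 (SE 0.131, limma adjusted p = 0.444), of opposite sign. Rel encodes a subunit best known in lymphocytes. In the 8-array table its signal was 60.5 to 90.9 without PDGF and 95.1 to 144.9 with it, and the change was 0.56 (SE 0.229, limma adjusted p = 0.268). In the 9-array table its probe set was below the filter, at 6.7 to 43.2 signal units, and was not tested.

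Counted by direction alone, 5 of the 8 members tested in the 8-array table (Bcl3, Rela, Relb, Nfkb2 and Rel) were higher with PDGF in all 4 pairs, as were 10.6% of all probe sets, and 1 was lower in all 4, as were 14.3%. In the 9-array table Bcl3, Rela and Relb, 3 of 6, were higher in all 4 pairs, against 9.09% of all probe sets, and 1 was lower, against 12.5%. These counts are a description by brightest probe sets. In the 8-array table Bcl3 passed the dim filter only through its arrays with PDGF. The dimmer probe set of Nfkb2 there was higher in 1 of 4 pairs, and that of Relb in the 9-array table in 4 of 4.

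Nfkbia was the member lower with PDGF in every pair of both tables at its brightest probe sets, though some pairs differed little. Its pair values ran from −0.50 to −0.12 (log2) in the 8-array table and from −0.46 to −0.03 in the 9-array table. It encodes IkappaB alpha, the inhibitor that NF-kappaB itself rapidly induces in cytokine-treated cells. Its brightest probe set in the 8-array table gave 1562.0 with vehicle, 1638.5 with SU6656, 1377.1 with UO126 and 2142.6 with LY294002. With PDGF added the signals were 1388.0, 1267.4, 1310.8 and 1531.9. Each array with PDGF was below its partner, though the groups overlapped. In the MEK experiment the signals were 980.8 untreated and 708.3 with PDGF, and in the repeat 489.8 with vehicle and 394.1 with PDGF. The fitted changes were −0.30 (log2, SE 0.0845, limma adjusted p = 0.105) and −0.21 (SE 0.124, limma adjusted p = 0.511), neither past the threshold, and the response over basal was −0.31 ± 0.14 (SD, n = 3 experiments).

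The other probe sets of Nfkbia had the same sign. The remaining 3 in the 8-array table had −0.38, −0.46 and −0.16, and the second in the 9-array table −0.21, with limma adjusted p = 0.119 at the lowest. Of these 4 probe sets, 2 were lower in all 4 pairs and 2 in 3 of 4. Without PDGF, LY294002 gave 0.42 to 0.59 over vehicle at the 4 probe sets of the 8-array table, and the additive LY294002 effect at the brightest was 0.29 (SE 0.12, unadjusted p = 0.0366, limma adjusted p = 0.337). At the brightest probe sets Nfkbia was thus lower and Bcl3 higher with PDGF in each of the 8 pairs.

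**Figure D3:**
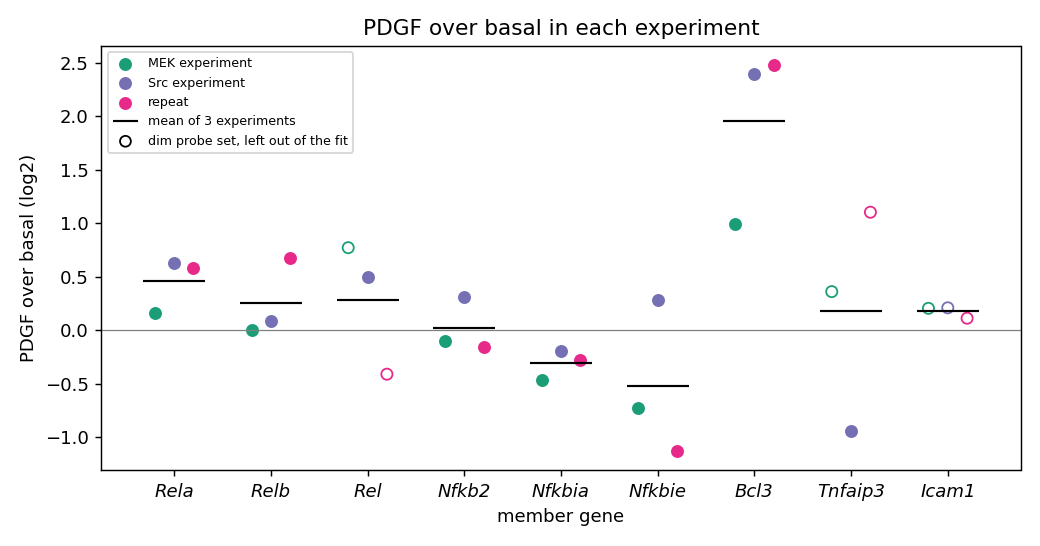
PDGF over basal (y axis, log2) for each of the 9 members (x axis), with 1 point per experiment and a line at the mean of the 3 experiments; open points are dim probe sets left out of the fit. Bcl3 has a mean of 1.96, and the means of the other members lie between −0.53 and 0.46.

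The remaining feedback genes were dim. Nfkbie, which encodes IkappaB epsilon, had signals of 20.6 to 115.1 over the 8 arrays and of 34.1 to 134.3 over the 9. Its PDGF changes had opposite signs, 0.61 (SE 0.336, limma adjusted p = 0.422) and −0.40 (SE 0.358, limma adjusted p = 0.697). With 1 array left out these ran from 0.34 (without UO126) to 0.91 (without the array of PDGF with LY294002) in the 5 cases where Nfkbie still passed the filter, and from −0.90 (without UO126) to −0.16 (without an array of the PDGF pair of the repeat). With UO126 and no PDGF it was at −1.01 in the Src experiment and −0.94 in the MEK experiment, while PD98059 without PDGF gave 0.59. Tnfaip3, a ubiquitin-editing enzyme that restrains the pathway, had 49.9 to 151.1 signal units in the 8-array table, with a change of −0.26 (SE 0.302, limma adjusted p = 0.741). Without the PDGF array this was −0.03, and without either LY294002 array −0.52 or −0.53. Its highest signal was on the vehicle array. In the 9-array table it was below the filter, with 44.4 on the PDGF array of the repeat and at most 13.2 on the other 8 arrays.

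Icam1, an adhesion molecule and classical NF-kappaB target, was below the filter in both tables. Its signal ran from 9.3 to 93.8 units over the 8 arrays and from 2.8 to 20.2 over the 9. The highest value of the former was that of PDGF with LY294002, and vehicle and PDGF had 9.3 and 16.4. PDGF over basal was 0.18 ± 0.05 (SD, n = 3 experiments) on the log2 scale with the pseudocount, which exceeds these signals on most arrays. Its signal was 73.3 with UO126, 65.5 with PDGF and UO126, and 38.1 with LY294002 in the 8-array table, while in the 9-array table it was 5.0 with UO126 and 2.8 with PDGF and UO126. No test was made on Icam1. Other adhesion and cell contact genes gave 1 upward call of 6 tested in the 8-array table (2.51% of all probe sets) and 1 of 5 in the 9-array table (1.46%), both Cd44, the hyaluronan receptor, which rose by 0.81 (SE 0.133, limma adjusted p = 0.00947) and 1.23 (SE 0.182, limma adjusted p = 0.00515).

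The other members had smaller values with SU6656 under PDGF than Bcl3, and none was called with an inhibitor. At the brightest probe sets, with SU6656 the other 7 members tested in the 8-array table lay between −0.14 (Rela) and 0.50 (Relb), and the other 5 in the repeat between −0.29 (Relb) and 0.44 (Nfkbie). With UO126 they lay between −0.34 (Rel) and 0.30 (Relb) in the Src experiment and between −0.24 (Nfkb2) and 0.87 (Nfkbie) in the MEK experiment. PD98059 gave 0.17 (Nfkb2) to 0.91 (Relb), and LY294002 −0.25 (Nfkbie) to 0.53 (Relb). Some dimmer probe sets lay outside these ranges. That of Nfkb2 in the Src experiment had −0.75 with SU6656 under PDGF. Its signal was 532.6 with PDGF and 244.2 with PDGF and LY294002, a ratio of 0.459, against 0.572 for Bcl3. Those of Nfkbia there had −0.0045 to 0.20 with SU6656 and 0.05 to 0.40 with LY294002 under PDGF. In the repeat the dimmer probe set of Nfkbia had −0.57 with SU6656, and that of Relb 1.97. Without PDGF the lowest value in the Src experiment was −1.01, found for Nfkbie with UO126 and for Tnfaip3 with LY294002, both dim.

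Limma called 0 of 8 members with SU6656, UO126 or LY294002 in the 8-array table, where 0.107% (all down), 0.0442% (0.0253% down) and 0.511% (0.202% up) of all probe sets were called. Counted by brightest probe sets, 0, 0 and 2 members had an unadjusted p under 0.05. The share of all probe sets at that limit was not counted. The dimmer probe set of Nfkb2 had −0.50 with SU6656 (limma unadjusted p = 0.0227) and −0.69 with LY294002 (limma unadjusted p = 0.00443). A dimmer probe set of Nfkbia had 0.55 with UO126 (limma unadjusted p = 0.0257). Limma called 0 of 6 members with MEK inhibition under PDGF, without PDGF, and between UO126 and PD98059. In these fits 0%, 0.0115% and 0% of all probe sets were called. By brightest probe sets, 1, 0 and 0 members had an unadjusted p under 0.05. The dimmer probe set of Relb had −1.45 with MEK inhibition without PDGF (limma unadjusted p = 0.00504). For the PDGF by MEK inhibitor interaction limma called 0 of 6 members and 0% of all probe sets. By brightest probe sets, 0 members had an unadjusted p under 0.05 there. The dimmer probe set of Relb had 2.16 in that fit (limma unadjusted p = 0.00177, limma adjusted p = 0.553). For the PDGF response with UO126 or LY294002 against the other backgrounds limma called 0 of 8 members (0.0189% and 0% of all probe sets) and 0 had an unadjusted p under 0.05.

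**Figure D4:**
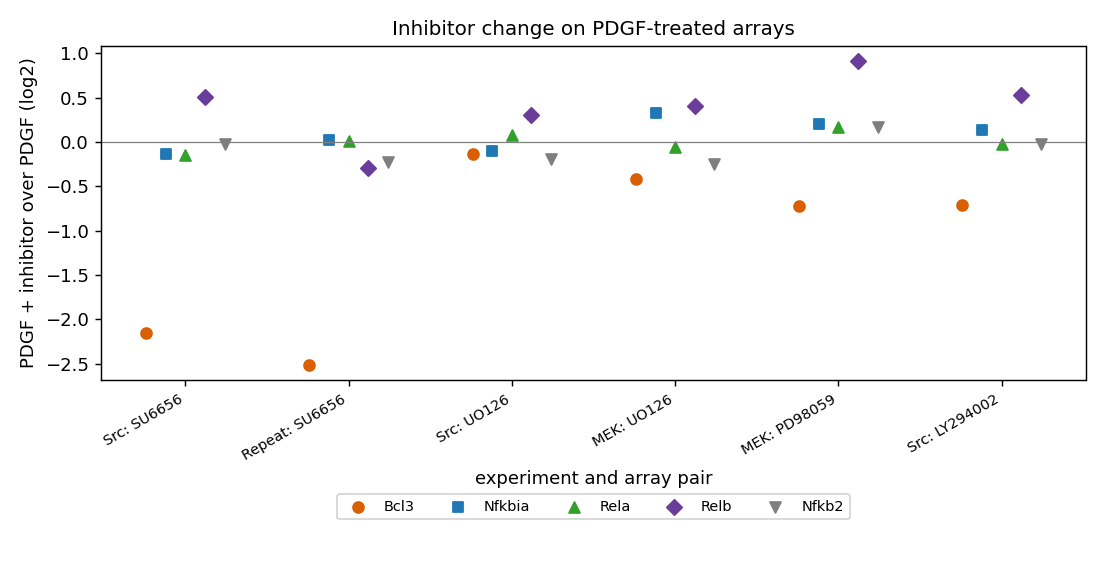
Log2 ratio of the array with PDGF and inhibitor over the array with PDGF alone (y axis) for each inhibitor and experiment (x axis), 1 point per gene for the 5 members named in the legend. Bcl3 is at −2.16 and −2.51 with SU6656, and the other points lie between −0.72 and 0.91.

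Other genes of the pathway were called as follows. Of a list of 44 receptors, adaptors, kinases and regulators, 3 rose among 35 tested in the 8-array table (median 0.01) and 2 among 33 tested in the 9-array table (median 0.05), and 0 fell in either. Over all probe sets 2.51% and 1.46% were called upward, with a median of −0.03 in each table. Nfkbiz, a nuclear IkappaB protein related to Bcl3, rose by 1.01 (SE 0.184, limma adjusted p = 0.0164) and 1.71 (SE 0.195, limma adjusted p = 0.000817). Traf5, a receptor adaptor, rose by 0.66 (limma adjusted p = 0.0486) and 0.64 (limma adjusted p = 0.045). Bcl10, a scaffold that links receptors to the IkappaB kinases, rose by 0.76 (limma adjusted p = 0.00235) in the 8-array table. Under PDGF, SU6656 changed Nfkbiz by −0.29 in the Src experiment and −0.57 in the repeat, smaller values than those of Bcl3 on the same arrays.

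Known NF-kappaB targets outside the members were also counted. Of a list of 40, 21 were tested in the 8-array table and 8 rose (median 0.15), and 24 were tested in the 9-array table and 9 rose (median 0.34), with 0 down, beside the same 2.51% and 1.46% upward and median of −0.03 over all probe sets. Of the 40, 39 and 37 had a probe set, and the dim filter takes the mean over arrays with and without PDGF. How many genes of this list or of the lists above passed it only through their arrays with PDGF was not counted. The counts are therefore a description. Many of these genes also respond to other pathways, and the list was drawn up with results of these arrays known. The values with SU6656 under PDGF in the Src experiment and its repeat were −2.27 and −2.67 for the chemokine Ccl7, −1.49 and −2.71 for the chemokine Ccl2, −1.07 and −0.79 for Csf1, a macrophage growth factor, and −0.77 and −0.95 for Ptgs2, the inducible cyclooxygenase. Those of the stress gene Gadd45b were −0.02 and −0.19, those of tissue factor, F3, −0.30 and −0.56, those of Ier3, an early response gene, −0.55 and −0.94, and that of the chemokine Cxcl1 was −1.06 in the repeat. Gadd45b rose with PDGF by 1.00 (SE 0.104, limma adjusted p = 0.000568) and 1.34 (SE 0.129, limma adjusted p = 0.000226).

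The genes whose pattern was most like that of Bcl3 were Gdnf, Csf1 and Socs3. Likeness was the root mean square difference of log2 values, centred within each experiment, over the 17 arrays and among 5536 genes. It was 0.499 for Gdnf, a neurotrophic factor, 0.537 for Csf1 and 0.542 for Socs3, a feedback inhibitor of cytokine receptors, with a median of 1.04 over all genes. The 3 genes were chosen by their likeness to Bcl3 on these same arrays, so their values are a description. PDGF over basal in the MEK experiment, the Src experiment and the repeat was 1.84, 2.97 and 1.79 for Gdnf, 1.32, 1.70 and 2.01 for Csf1, and 2.36, 1.87 and 1.59 for Socs3. With SU6656 under PDGF, Gdnf had −2.87 in the Src experiment and −1.03 in the repeat, and Socs3 −0.72 and −0.94. Of these values, only that of Gdnf in the Src experiment was lower than that of Bcl3 on the same arrays.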

How the data were processed

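Each array has 1 linear intensity value per probe set as deposited, which the authors had scaled to a common trimmed mean (500.2 to 500.36 after trimming, found from the values). The software that made them is not given in the sources used here. Control probe sets (64 and 66) were left out, values were quantile normalised within each table, and log2 of the value plus the 20th percentile (36.28 and 21.19 signal units) was taken. Probe sets whose mean was in the lowest 30% did not enter the fits. Gene names came from the platform annotation, updated through Entrez IDs with a RefSeq table (GRCm38.p6). A gene counts by its probe set with the highest mean.

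Fits used limma 3.58.1 under R 4.3.3 (trended eBayes, Benjamini-Hochberg over all probe sets kept, threshold 0.05), with 2 or 3 residual degrees of freedom, and were tested on simulated data. The PDGF fits used the pair of arrays as a block, taken from the labels. The residual holds treatment differences that have no term. The tables were never tested together. Members and lists were chosen with earlier results of these data known. Named genes were the members, the members of each list called with PDGF (at most 8 a list) and the 3 genes most like a member called up in both tables. Alternatives covered normalisation, pseudocount, filter, variance trend, probe set, block, interaction and each array left out. The number of arrays limits the precision.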

Additional observations from a re-analysis of the deposited data

How the results depend on the processing

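In the 8-array table the count of 1 member called with PDGF was 2 with scaling to a common median (Rela in addition), 0 without the filter, 0 with the lowest 50% left out (Bcl3 was then not tested), 0 without the variance trend, 0 without the pair block and 0 to 1 without any 1 array. In the 9-array table it was 0 without the trend and 0 without the pair block (limma adjusted p of Bcl3 0.291). Over all probe sets the 525 calls of the 8-array table were 175 without the trend, 241 without the block, 346 without the SU6656 pair (an alternative chosen after seeing the data) and 264 to 386 without any 1 array; the 150 of the 9-array table were 63 and 60 without the trend and the block. Values of Bcl3 that did not pass changed sign when 1 array was left out: UO126 ran from −0.82 to 0.42, LY294002 from −0.69 to 0.34, the PDGF response with LY294002 from −1.16 to 0.0192, MEK inhibition without PDGF from −1.25 to 0.29 and the PDGF by MEK inhibitor interaction from −0.85 to 0.64. The PDGF change of Nfkb2 in the 9-array table ran from −0.0588 to 0.0847. The cause was not tested. The SU6656 values of Bcl3 under PDGF kept their sign under every normalisation and pseudocount tried. An interaction fit could not be fitted without an array of its own inhibitor. Signal near the pseudocount limits Icam1, Tnfaip3, Rel and Nfkbie. It also limits Bcl3 in the 8-array table, where the pseudocount was 36.28. There the signal of Bcl3 was 42.5 to 73.4 without PDGF and 64.6 with PDGF and SU6656.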
